A study of Mus musculus with 4 samples.

Results

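AMPA receptors are the glutamate-gated channels that carry most of the fast excitatory current at synapses of the brain. Assemblies of 4 pore-forming subunits make the channel, and the genes Gria1, Gria2, Gria3 and Gria4 each encode 1 of these subunits. Auxiliary proteins join the channel and change its transport or how it opens and closes, in ways that differ among them. They are the transmembrane AMPA receptor regulatory proteins (TARPs), here Cacng2, Cacng3, Cacng4 and Cacng5, and the cornichon homologues Cnih2 and Cnih3. The edited subunit from Gria2 keeps calcium out of the pore, and interneurons are known for receptors with little of it. The 10 genes described here were chosen by symbol for these roles, 4 pore-forming and 6 auxiliary, out of 43348 genes in the files, and all 10 were found.

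The study removed the obligate NMDA receptor subunit gene Grin1 from cells of the medial ganglionic eminence (MGE), the embryonic source of many cortical and hippocampal interneurons. TdTomato-positive cells were sorted from slices of frontal cortex and hippocampus of juvenile mice at postnatal day 18 to 20 and loaded on the 10x Chromium 3′ system, which counts 1 unique molecular identifier (UMI) per captured transcript molecule. Both genotypes carried Nkx2-1-Cre, which is active in the MGE, and the Ai14 reporter that Cre switches on. Tetrodotoxin, APV and actinomycin D were in the buffers of every group.

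The 4 groups are WT cortex and WT hippocampus, with both Grin1 alleles wild type, and cortex and hippocampus of Grin1 fl/fl animals, labelled GRIN1-KO and called null below. Mice of both sexes were used, WT controls were littermates, and animals were pooled, so the unit of replication is the library and not the animal. A figure legend of the study gives the WT cells of both regions as from 6 brains in 3 replicates. The 6 WT libraries may therefore not be 6 separate pools of animals. There are 3 WT and 2 null libraries per region, 10 in all. Replicate 1 of each group was made with 10x chemistry version 2, and replicates 2 and 3 with version 3. No null replicate 3 exists, so every null library has a WT library of the same number in its region. Oligodendrocyte-lineage cells, glutamatergic neurons and a few other cells are in the sorts beside interneurons, and how they came there was not tested.

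Of 26987 barcodes, 26201 cells were kept. In WT cortex, replicate 1 gave 1277 cells and 9306756 UMIs, replicate 2 gave 3830 cells and 14050536 UMIs, and replicate 3 gave 3930 cells and 27341723 UMIs. In WT hippocampus these were 2219 cells and 10551025 UMIs, 4599 cells and 8781135 UMIs, and 3135 cells and 20438462 UMIs. The null cortex libraries held 177 cells with 1452379 UMIs and 2578 cells with 24668652 UMIs. The null hippocampus libraries held 401 cells with 3851048 UMIs and 4055 cells with 43644831 UMIs. Any pair of libraries shared at most 12 barcodes, between WT replicate 2 of cortex and of hippocampus. The largest share of the smaller library was 0.552%, for null cortex replicate 1 with WT replicate 1 of cortex and of hippocampus.

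WT hippocampus replicate 2 stands apart. Its median cell had 1479 UMIs, against 4411 and 5752 in the other WT hippocampus libraries, and its cells gathered in clusters that hold few cells of other libraries, such as 513 of its 517 NGFC cells in a single NGFC cluster. Most log2 differences between regions and genotypes are given below with and without it. Depth differed between genotypes. Cortical SST cells had a median of 11679.5 UMIs in null and 6843 in WT, although null cortex replicate 1 was at 6641 and its WT counterpart at 7903, so shares of cells with a UMI are not compared between genotypes.

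Cell classes were named from fixed markers. The interneuron classes of WT libraries held 4663 somatostatin (SST) cells, 1613 parvalbumin (PVALB) cells and 1330 neurogliaform (NGFC) cells. The other classes used here are 1206 oligodendrocyte precursors (OPC), 1522 committed precursors, 5908 oligodendrocytes and 884 glutamatergic neurons. A small cluster of tyrosine hydroxylase (TH) cells was counted with SST. Levels are given as CPM, the UMIs of a gene scaled by all UMIs of the class in a library. Since a transcript gives 1 UMI whatever its length, levels of different genes are set side by side on this scale without dividing by length, although the capture of each gene's 3′ end may differ.

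The pore-forming subunits share a stretch of coding sequence at the Q/R site, where the Gria2 transcript is edited from a glutamine to an arginine codon. It is shown because calcium entry through the channel turns on this codon. The genomic sequence was read from the GRCm38 assembly, 45 bases in the strand of each gene, with the Q/R codon in capitals.
Gria1, chr11:57243073-57243117, plus strand, exon 11 of 16: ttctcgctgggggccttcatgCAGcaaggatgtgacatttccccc
Gria2, chr3:80706890-80706934, minus strand, exon 11 of 16: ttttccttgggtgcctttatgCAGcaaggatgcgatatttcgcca
Gria3, chrX:41610244-41610288, plus strand, exon 11 of 16: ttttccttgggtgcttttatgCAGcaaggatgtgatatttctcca
Gria4, chr9:4464116-4464160, minus strand, exon 12 of 17: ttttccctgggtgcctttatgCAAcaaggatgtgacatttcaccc
All 4 genomic codons encode glutamine. The Gria2 and Gria3 stretches differ at 3 of 45 bases, and Gria1 differs from either at 9. Counts from the 3′ end of transcripts do not read this site, so these data give the level of Gria2 but not its editing.

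The first question is which subunits and auxiliary proteins each class of MGE-derived interneuron transcribes in WT tissue. PVALB cells inhibit the cell body and SST and NGFC cells inhibit dendrites, and the subunit mix sets how fast and how calcium-permeable their excitatory input is. Each library holds all 3 classes, so the edgeR test compared classes within libraries over the 6 WT libraries. Calls need an adjusted p below 0.01 together with a log2 difference of 0.144 or more in size.

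Gria1 (ENSMUSG00000020524.12, chr11:57011387-57330244) encodes the subunit that is added to synapses during potentiation. Its level in NGFC cells ran from 568 to 957 CPM over the 6 WT libraries, with a median of 810.2. In PVALB cells it ran from 465 to 1243 CPM with a median of 703, and in SST cells from 331 to 907 CPM with a median of 667. These ranges overlap widely. The NGFC level was above the SST level in 5 of 6 libraries, a log2 difference of 0.35 (SE 0.09, adjusted p 0.00607), and it was not called without cortex WT replicate 1 (0.28, adjusted p 0.0331), 2 (0.31, adjusted p 0.0286) or 3 (0.35, adjusted p 0.0193). This call was also lost with scaling by library totals, no filter on low counts, no library block and all 10 libraries. Over the alternatives the highest edgeR adjusted p was 0.570. PVALB against SST was 0.30, higher in 5 of 6 libraries (SE 0.09, adjusted p 0.0162), and was called only without hippocampus WT replicate 1 among the libraries left out in turn (0.39, adjusted p 0.0013).

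Gria2 (ENSMUSG00000033981.10, chr3:80681450-80802835) was at 438 to 559.9 CPM in SST cells, with a median of 502, and at 373 to 584 CPM in PVALB cells, with a median of 515. NGFC cells had 252 to 399 CPM with a median of 323. The NGFC level was the lowest of the 3 classes in each of the 6 libraries. The log2 difference was -0.62 from SST (SE 0.07, adjusted p 2.2e-07) and -0.59 from PVALB (SE 0.07, adjusted p 9.8e-07), while PVALB and SST differed by -0.03 (SE 0.06).

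Gria3 (ENSMUSG00000001986.12, chrX:41400854-41678601), whose product pairs with that of Gria2 in many neurons, separated NGFC cells from both other classes. SST cells had 148 to 359.9 CPM with a median of 218, PVALB cells 116 to 268 CPM with a median of 226, and NGFC cells 38.5 to 78.2 CPM with a median of 51.8. No NGFC value reached the lowest SST or PVALB value. The log2 difference was -2.17 from SST (SE 0.14, adjusted p 1.2e-10) and -1.99 from PVALB (SE 0.15, adjusted p 1.8e-09), lower in 6 of 6 libraries each time.

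Gria4 (ENSMUSG00000025892.11, chr9:4417896-4796234) encodes a subunit with fast kinetics. PVALB cells had 118 to 332 CPM with a median of 142, against 43.2 to 279.7 CPM with a median of 93.1 in SST cells and 36.1 to 179 CPM with a median of 85.8 in NGFC cells. The ranges overlap and all 3 classes were highest in the same library, WT hippocampus replicate 2. Within each of the 6 libraries PVALB was the highest class. PVALB exceeded SST by 0.80 on the log2 scale (SE 0.11, adjusted p 1.1e-05), and NGFC was at -0.89 relative to PVALB (SE 0.14, adjusted p 2.6e-05).

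As shares of the UMIs of the 4 subunit genes, these levels give the subunit mix of each class. Gria1 made up 61.7% ± 6.64 (SD, 6 WT libraries) in NGFC cells, 45.7% ± 8.89 in PVALB cells and 42.0% ± 8.24 in SST cells. Gria2 made up 26.3% ± 5.75, 31.0% ± 7.79 and 35.0% ± 7.83 in the same order. Gria3 was 4.60% ± 1.63 in NGFC cells against 12.7% ± 1.76 in PVALB and 15.9% ± 2.91 in SST cells. Gria4 was 10.6% ± 3.35 in PVALB cells, 7.46% ± 3.0 in NGFC cells and 7.07% ± 3.37 in SST cells. The intervals of mean ± SD in NGFC cells are clear of the other 2 classes for Gria1 and Gria3, and all others overlap.

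**Figure D1:**
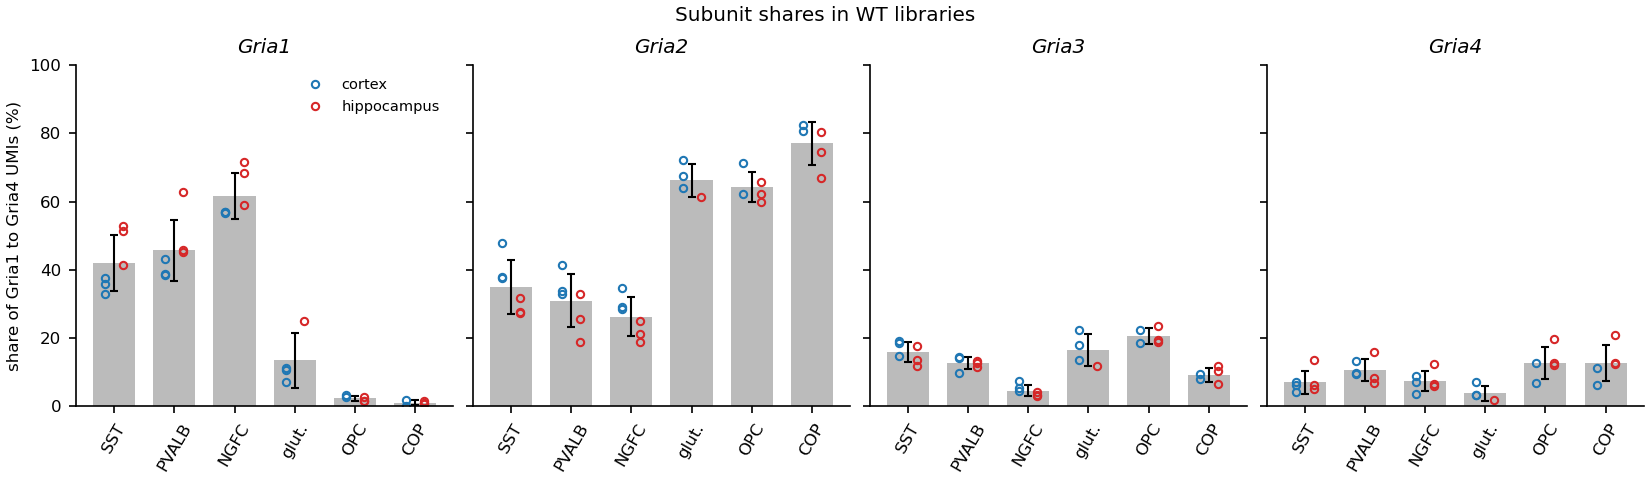
Share of each subunit gene in the UMIs of Gria1 to Gria4, in percent, for 6 cell classes of WT libraries with over 100 such UMIs (glut., glutamatergic; OPC, oligodendrocyte precursors; COP, committed precursors). Bars are means, error bars are SD, and each circle is a library of cortex (blue) or hippocampus (red); over both regions Gria1 has the largest mean share in the 3 interneuron classes, although in cortex the mean share of Gria2 is above it in SST cells (41.1% against 35.6%) and Gria2 leads in PVALB cells of replicate 1, and Gria2 has the largest in the other 3.

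Among the TARPs, Cacng2 (ENSMUSG00000019146.2, chr15:77991748-78120028), the gene of stargazin, led in each interneuron class. Its level was 155 to 376 CPM in PVALB cells with a median of 299, 153 to 291 CPM in SST cells with a median of 184, and 118 to 219 CPM in NGFC cells with a median of 151. PVALB was the highest class in each of the 6 libraries, by 0.53 over SST on the log2 scale (SE 0.10, adjusted p 0.00026), and NGFC was at -0.86 relative to PVALB (SE 0.11, adjusted p 4.7e-06). Cacng2 made up 81.9% ± 12.6 of the UMIs of the 4 TARP genes in PVALB cells, 74.0% ± 4.70 in NGFC cells and 63.8% ± 6.16 in SST cells. The TARP gene Cacng7, outside these 4 and named after its values were seen, had means of 66.7, 60.9 and 63.2 CPM in the same order.

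Cacng3 (ENSMUSG00000066189.5, chr7:122670492-122769393), the closest relative of Cacng2, was at 47.5 to 117 CPM in SST cells with a median of 76.1, at 14.6 to 88.7 CPM in PVALB cells with a median of 32.1, and at 3.78 to 19.7 CPM in NGFC cells with a median of 9.33. SST and NGFC cells do not overlap, and the NGFC difference from SST was -3.10 (SE 0.41, adjusted p 3.7e-06). PVALB cells were below SST cells in 4 of 6 libraries, the 3 of cortex and 1 of hippocampus. Their difference over all libraries was -1.37 (SE 0.28, adjusted p 0.00058). That call was lost without cortex WT replicate 2 (-1.24, adjusted p 0.0125) or 3 (-0.90, adjusted p 0.0235), and DESeq2 gave -0.86 with an adjusted p of 0.164, the highest over the alternatives.

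Cacng4 (ENSMUSG00000020723.3, chr11:107732357-107794557) and Cacng5 (ENSMUSG00000040373.8, chr11:107874605-107915055) are neighbours on chromosome 11. Cacng4 was at 19.7 to 49.1 CPM in NGFC cells with a median of 41.2, at 11.1 to 47.8 CPM in SST cells with a median of 32.1, and at 10.9 to 22.6 CPM in PVALB cells with a median of 12.8. PVALB was the lowest class in each of the 6 libraries, at -1.02 relative to SST (SE 0.18, adjusted p 0.00011), and NGFC was 1.33 above PVALB (SE 0.21, adjusted p 4.2e-05). Cacng5 was sparse, with 206 UMIs in SST, 26 in NGFC and 3 in PVALB cells of the WT libraries. PVALB cells had none in 4 of 6 libraries, so its fold change is given from the counts: the PVALB level was 0.0372 of the SST level, with a 95% counting interval of 0.00761 to 0.110, and 0.0601 of the NGFC level, with an interval of 0.0116 to 0.196. The highest PVALB level, 3.57 CPM, was in hippocampus WT replicate 2, and the ratios without that library are not given. Cacng5 fell under the filter, and was not tested, without cortex WT replicate 2 or 3 or hippocampus WT replicate 3.

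Cnih2 (ENSMUSG00000024873.6, chr19:5092868-5098521), the cornichon that slows the channel's closing in principal cells, was highest in NGFC cells. It ran from 364 to 1188 CPM there with a median of 636, from 171 to 640.0 CPM in SST cells with a median of 367, and from 145 to 564 CPM in PVALB cells with a median of 184. The ranges overlap, yet NGFC was above SST and above PVALB in 6 of 6 libraries, by 0.88 (SE 0.13, adjusted p 1.4e-05) and by 1.5 (SE 0.14, adjusted p 3.9e-08). PVALB was below SST in 5 of 6 libraries, at -0.62 (SE 0.13, adjusted p 0.0011). This last call was lost without cortex WT replicate 2 (-0.56, adjusted p 0.0142) or 3 (-0.49, adjusted p 0.0210).

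Cnih3 (ENSMUSG00000026514.9, chr1:181352628-181460641), the other cornichon, was low in all 3 classes. Its medians were 22.9 CPM in PVALB, 16.1 CPM in SST and 9.33 CPM in NGFC cells, within ranges of 11.4 to 26.8, 12.9 to 18.7 and 3.13 to 16.4 CPM. NGFC cells were below PVALB cells in 6 of 6 libraries, at -1.32 (SE 0.23, adjusted p 0.00011). The smaller differences from SST were called, 0.55 for PVALB (adjusted p 0.0062, higher in 5 of 6 libraries) and -0.77 for NGFC (adjusted p 0.0085, lower in 6 of 6). The first was kept only without hippocampus WT replicate 1 and the other only without cortex WT replicate 2 when libraries were left out in turn, with ranges over all alternatives of 0.04 to 0.64 and of -1.06 to -0.62. Removal of cells marked as doublets also took the NGFC call (-0.79, adjusted p 0.0105).

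Counted over the list, 7 of 10 members were called between PVALB and SST cells, 3 higher and 4 lower in PVALB, where 22.2% of all genes tested were called. Between NGFC and SST cells 6 of 10 were called, 2 higher and 4 lower, against 23.9% of all genes, and between NGFC and PVALB cells 8 of 10, 3 higher and 5 lower, against 23.6%. The PVALB and SST count fell from 7 to 3 without cortex WT replicate 2 and to 3 without cortex WT replicate 3. With no library block edgeR called 0 of 9 members there, with 4 at an unadjusted p under 0.05 and 5 called by DESeq2 with the block. Without the block edgeR called 3 members between NGFC and SST and 4 between NGFC and PVALB. The shares of all genes above belong to the fit of all WT libraries with the block. Those without the block, or with a library left out, are not given. The median absolute log2 difference of the members was 0.58, 0.58 and 1.32 in these comparisons, and that of all genes 0.21, 0.26 and 0.30. Over the auxiliary genes as a whole, NGFC cells had 0.734 ± 0.229 (SD) auxiliary UMIs per subunit UMI, SST cells 0.505 ± 0.181 and PVALB cells 0.389 ± 0.0789. These SDs overlap between NGFC and SST cells, and between SST and PVALB cells.

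**Figure D2:**
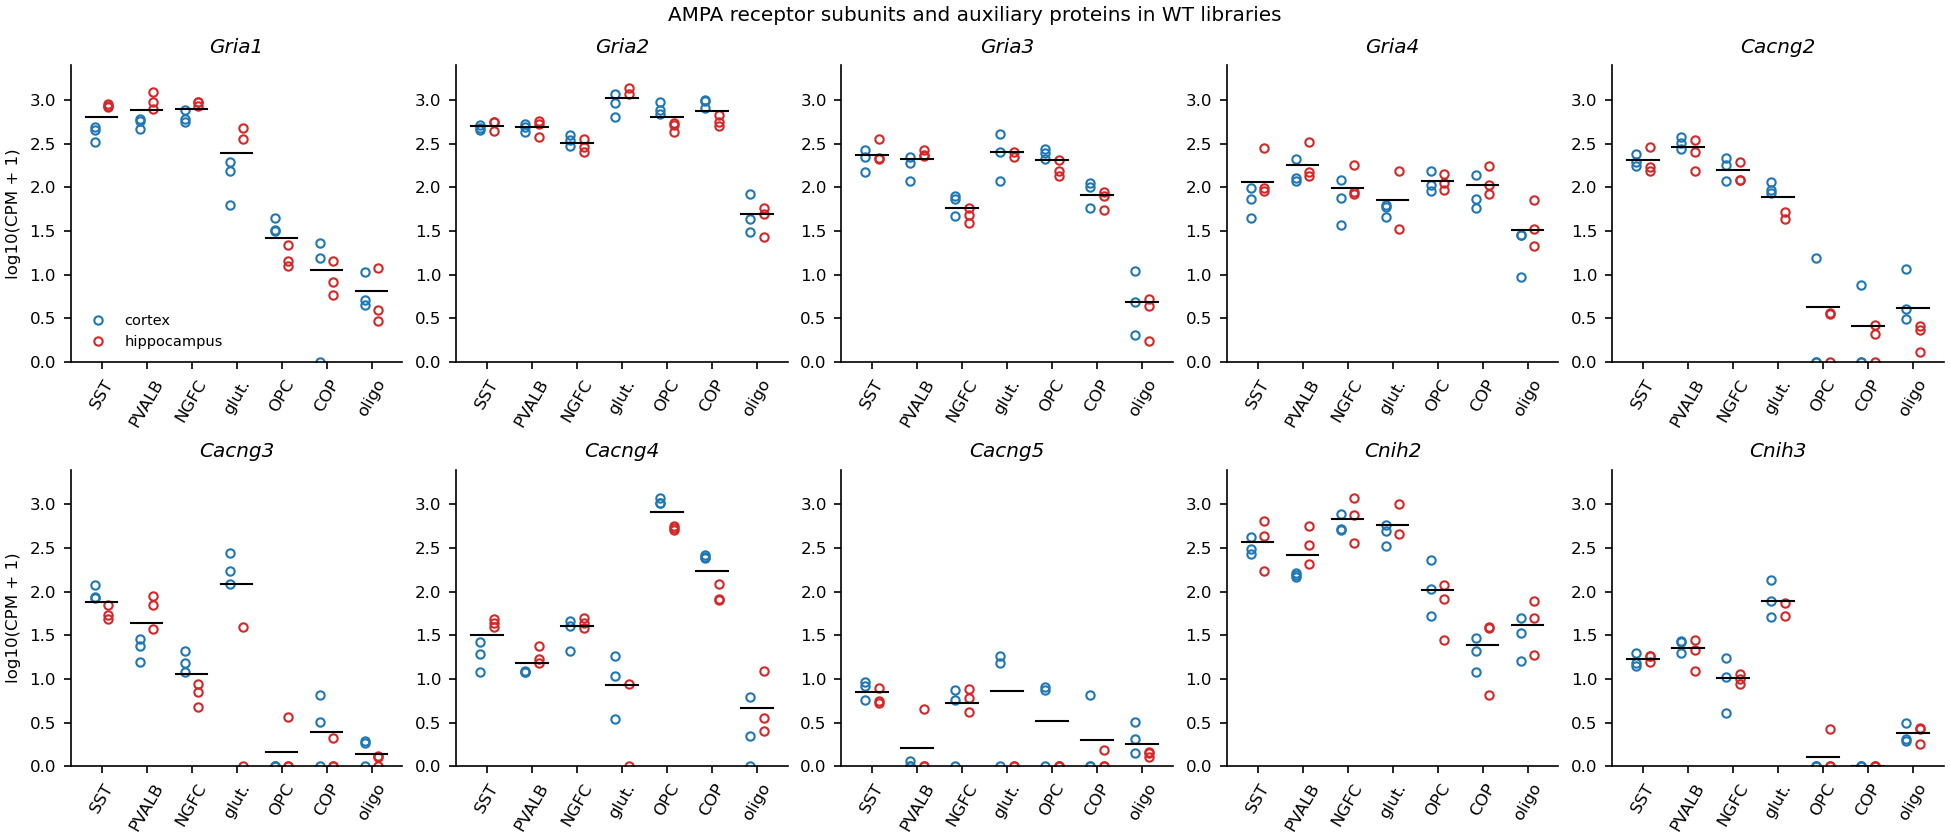
Level of each member in 7 cell classes of the WT libraries, on a log10 scale of CPM + 1. Circles are libraries of cortex (blue) and hippocampus (red), black lines mark the mean of the libraries, and the classes are shortened as glut. (glutamatergic), COP (committed precursors) and oligo (oligodendrocytes). Cacng4 is highest in OPC, Cnih3 in glutamatergic cells and Gria1 in the 3 interneuron classes.

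A list of 32 other genes of the AMPA receptor complex gives context: further auxiliary proteins, factors of assembly, editing and export, and anchoring proteins. Of these, 4 were called higher and 7 lower in PVALB than in SST cells, 3 higher and 9 lower in NGFC than in SST cells, and 5 higher and 5 lower in NGFC than in PVALB cells, where 22.2%, 23.9% and 23.6% of all genes were called. Named by the size of their differences, PVALB cells had less of the auxiliary gene Shisa6 than SST cells (-3.92), less Olfm3 (-2.01), more Shisa9 (1.68) and less Olfm2 (-0.87). NGFC cells had less than SST cells of Nptx1 (-3.25), which encodes a pentraxin that gathers receptors, and of Olfm3 (-2.95), Shisa6 (-2.69) and Syndig1 (-2.65). Relative to PVALB cells they had less Syndig1 (-2.81), Shisa9 (-2.45) and Shisa8 (-1.38) and more Shisa6 (1.23). Adarb1, named here for its role as the gene of the enzyme that edits the Gria2 Q/R codon, was not called in any of the 3 comparisons, at 0.18, -0.07 and -0.25.

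The share of cells with a UMI depends on depth and on free RNA, so it was read beside oligodendrocytes, which had 5.54 CPM of Gria1. With every cell thinned to 1000 UMIs, 55.3% of NGFC, 42.1% of PVALB and 38.7% of SST cells of WT libraries had a Gria1 UMI, against 0.552% of oligodendrocytes. Before thinning the shares were 82.6%, 89.4% and 78.5%, against 1.52%, at medians of 3456.5, 6807, 6084 and 3486 UMIs per cell. For Cacng5 the thinned shares were 0.643% of SST, 0.678% of NGFC and 0.0631% of PVALB cells beside 0.114% of oligodendrocytes, so the PVALB share is no higher than the oligodendrocyte share.

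Glutamatergic neurons in the sorts offer a contrast with principal cells, which are known for receptors rich in Gria2. Of the 884 WT cells, 632 are in cortex replicate 2, at a median of 795.5 UMIs against 8171 and 7953 in cortex replicates 1 and 3. Of these 632, 490 fell in a cluster of low depth. WT hippocampus replicate 1 held 2, too few to be tested, and replicate 2 held 15. The tests used 5 libraries, and the identity of these cells rests on Slc17a7 and 4 other markers. Those markers sum to 668 to 1440 CPM in them and to at most 5.01 CPM in SST cells of any WT library. The edgeR test compared them with SST cells within libraries.

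Gria2 ran from 633 to 1388 CPM in glutamatergic cells, with a median of 1162, and was above SST in 5 of 5 libraries by 0.93 (SE 0.16, adjusted p 0.00018). Gria1 ran from 61.8 to 476 CPM with a median of 193 and was below SST in 5 of 5, at -1.52 (SE 0.19, adjusted p 3.2e-06). In the subunit mix, Gria2 made up 66.2% ± 4.77 (SD, 4 libraries with over 100 subunit UMIs) and Gria1 13.5% ± 7.97. Gria3 was at 0.05 relative to SST (SE 0.18, adjusted p 0.885). Without cortex WT replicate 2 these differences were 0.86 for Gria2, -1.60 for Gria1 and -0.17 for Gria3, and the first 2 were called.

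Cnih3 was at 136, 77.6 and 50.2 CPM in cortex replicates 1 to 3 and at 51.4 (1 UMI) and 73.0 CPM in hippocampus replicates 2 and 3, above every value of the 3 interneuron classes, and its difference from SST was 2.31 (SE 0.21, adjusted p 2.3e-08). An interneuron cluster led by Chodl that is in none of these classes had 86.6 CPM of Cnih3 over the WT libraries, above 4 of the 5 glutamatergic values, and with it counted as SST the difference was 1.75 (SE 0.20, adjusted p 1.3e-06). Cacng2 was at 42.3 to 114 CPM and fell by 1.46 on the log2 scale relative to SST (adjusted p 3.0e-05). Cacng4 had only 32 UMIs in these cells. Its difference of -1.30 (adjusted p 0.0040) lost its call without hippocampus WT replicate 2 (-1.27, adjusted p 0.0193) or 3 (-0.89, adjusted p 0.0251). The call was also lost with DESeq2, a stricter cell filter, sums of at least 20 cells and no library block. In all, 5 of 10 members were called, 2 higher and 3 lower, where 18.2% of all genes were. Of the 32 other complex genes, 9 were higher and 8 lower, led by Shisa8 (-4.04), Nptx1 (3.24), Grip1 (-2.59) and Shisa6 (-2.38).

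Oligodendrocyte precursors receive synapses from neurons and are known to carry AMPA receptors, which are lost as the cells mature. The comparison of OPC with oligodendrocytes follows the members along that lineage within the 6 WT libraries. Cacng4 was at 1175, 1048 and 1035 CPM in OPC of cortex and at 571, 508 and 538 CPM in OPC of hippocampus. Oligodendrocytes had 0 to 11.5 CPM with a median of 2.05. The groups lie far apart, with a log2 difference of 7.04 (SE 0.31, adjusted p 3.5e-22) in 6 of 6 libraries. Committed precursors lay between them, at 78.7 to 259 CPM with a median of 183, and overlapped neither.

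Gria2 was at 429 to 945 CPM in OPC with a median of 617 and at 26.2 to 83.2 CPM in oligodendrocytes with a median of 45.5, a difference of 3.03 (SE 0.16, adjusted p 6.0e-20). Gria3 was at 134 to 275 CPM in OPC with a median of 211 and at 0.762 to 10.0 CPM in oligodendrocytes with a median of 3.64, a difference of 5.02 (SE 0.23, adjusted p 1.4e-21). Gria4 differed by 1.17 (SE 0.21, adjusted p 8.1e-06). Gria4 was at 89.9 to 153 CPM in OPC and at 8.33 to 70.8 CPM in oligodendrocytes. Gria2, Gria3 and Gria4 were each higher in OPC in 6 of 6 libraries, and none of them overlapped between the classes. Committed precursors kept Gria2 at 499.5 to 999.7 CPM while Gria3 fell to 54.1 to 112 CPM, below every OPC value.

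Gria1 was low in OPC, at 11.5 to 43.1 CPM with a median of 25.8, and was called at 1.48 over oligodendrocytes (SE 0.36, adjusted p 0.00045). Without hippocampus WT replicate 3 the difference was 1.16 with an adjusted p of 0.0175 and was not called. The summed level of the 7 SST markers was also higher in OPC, at 195 to 791 CPM against 17.1 to 117 CPM in oligodendrocytes, with 0 to 2 of the 7 at 0. The leading marker in OPC was Sst in cortex replicates 1 and 3. It was Grin3a in OPC of cortex replicate 2 and of hippocampus replicates 1 to 3. In oligodendrocytes it was Sst in each WT library. The part of interneuron RNA in the Gria1 difference was not tested.

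The subunit mix of OPC was 64.3% ± 4.44 Gria2, 20.6% ± 2.29 Gria3, 12.8% ± 4.63 Gria4 and 2.34% ± 0.753 Gria1 (SD, 5 libraries with over 100 subunit UMIs). Cacng4 made up 99.2% ± 0.771 of their UMIs of Cacng2 to Cacng5, a sum that leaves out the TARP gene Cacng7, at a mean of 50.2 CPM in OPC. Of 7 members that passed the filter on low counts, 5 were called, all higher in OPC, where 53.1% of all genes were called. Cacng2 (-0.29, adjusted p 0.714) and Cnih2 (0.45, adjusted p 0.0378) were not called, and Cacng3, Cacng5 and Cnih3 had at most 3 UMIs each in OPC. This is the comparison in which scaling matters most: with library totals in place of TMM the median of all genes moves by 0.68 on the log2 scale, and Cnih2 moves with it to 1.15 (adjusted p 1.2e-05). After thinning to 1000 UMIs, 46.1% of OPC and 0.419% of oligodendrocytes had a Cacng4 UMI, at unthinned medians of 1497.5 and 3486 UMIs per cell. Of 27 other complex genes tested, 14 were higher and 8 lower in OPC, led by Olfm2 (5.22), Nptx2 (5.16), Shisa6 (4.33) and Shisa7 (4.18).

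Across the classes the order of levels is clear only at a few steps. By the mean of the WT libraries, Gria1 fell from NGFC (781 CPM) through PVALB (774) and SST (645) to glutamatergic cells (249), and Gria2 from glutamatergic cells (1057 CPM) through committed precursors (758) and OPC (647) to SST (502). Neighbours in these orders overlap. Neighbouring classes whose libraries do not overlap are found for Gria3 from OPC (205 CPM) to committed precursors (81.5), Cacng2 from NGFC (159.6 CPM) to glutamatergic cells (76.7) and on to microglia (4.39), Cacng4 from OPC (813 CPM) to committed precursors (172) and on to NGFC (39.0), and Cnih3 from glutamatergic cells (77.7 CPM) to PVALB (21.6).

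Interneuron classes hold clusters of their own, and some members vary among them. Values here pool the WT cells of a cluster over both regions, so no spread over libraries is given. The share of hippocampal cells differs by cluster, and Gria1 in SST cells had means of 427 CPM in cortex and 864 CPM in hippocampus. The part of region in the cluster values was not tested. Within SST, Gria1 was at 842 CPM in the cluster led by Cbln4 and at 275 CPM in the cluster led by Myh4, with 323 CPM in the cluster led by Crh. Gria3 was at 381, 239 and 130.2 CPM in the same clusters. The TH cluster had 978 CPM of Gria1 with 52.7 CPM of Gria3 and 7.40 CPM of Cacng3, low values of the latter genes for the SST class with which it is counted. A cluster led by Chodl, left unnamed, had 86.6 CPM of Cnih3 and 25.9 CPM of Cacng5, the highest of the interneuron clusters for both. Within PVALB, Cacng3 was at 18.2 CPM in the cluster led by Cartpt and at 77.8 CPM in the cluster led by Kcng4.

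The next comparison asks whether the same class differs between hippocampus and frontal cortex in WT tissue. The hippocampus and the neocortex hold SST and PVALB cells with related but not identical partners. Region was tested per class with 3 libraries on each side, so the spread between libraries weighs heavily. Deviations of same-numbered libraries went together across regions in SST, PVALB and NGFC cells (Pearson r over genes of 0.201 to 0.684, genes not being independent replicates), and some values from a fit with the replicate number as a block are given beside the first.

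Gria1 in SST cells was at 331, 498 and 453 CPM in cortex replicates 1 to 3 and at 907, 848 and 837 CPM in hippocampus. In PVALB cells it was at 465, 608 and 572 CPM against 799, 959 and 1243 CPM. In NGFC cells it was at 568, 774 and 601 CPM against 941, 846 and 957 CPM. The regions do not overlap in any of the 3 classes, and hippocampus was higher within every replicate number, across both chemistries.

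The log2 difference of Gria1 was 0.98 in SST cells (SE 0.23), 0.87 in PVALB cells (SE 0.25) and 0.54 in NGFC cells (SE 0.27). None passed in edgeR, at adjusted p of 0.153, 0.497 and 1. In SST cells it was called by DESeq2 (adjusted p 0.00261) and with the replicate block (0.99, adjusted p 0.00206), and its adjusted p ran from 0.00206 to 0.579 over all alternatives. In PVALB and NGFC cells the block gave 0.85 (adjusted p 0.0115) and 0.54 (adjusted p 0.483). Without hippocampus WT replicate 2 the differences were 0.97 in SST, 0.88 in PVALB and 0.56 in NGFC cells. The make-up of the SST class differs by region: the cluster led by Myh4, low in Gria1, held 240 of 592, 330 of 1055 and 535 of 1565 SST cells in cortex replicates 1 to 3 and 64 of 288, 78 of 815 and 80 of 348 in hippocampus. Of the 815 in hippocampus replicate 2, 513 were in the cluster led by Gm27675. Gria1 was higher in hippocampus in each of the 8 interneuron clusters with at least 50 WT cells in both regions, in values pooled over libraries. Their intervals cover counting error only, and the difference within clusters was not tested against the spread between libraries. As a share of subunit UMIs in SST cells, Gria1 was at 35.6% ± 2.37 (SD, 3 libraries) in cortex and 48.5% ± 6.19 in hippocampus.

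Cacng4 in SST cells was at 11.1, 18.5 and 25.7 CPM in cortex and at 43.2, 38.6 and 47.8 CPM in hippocampus. The groups are apart, and the difference was 1.18 (SE 0.31, adjusted p 0.209), called only with the replicate block (1.21, adjusted p 0.0027) and 1.23 without hippocampus WT replicate 2. In OPC the order was the reverse, with every cortex value above every hippocampus value and a difference of -0.85 (SE 0.34, adjusted p 0.921), or -0.80 without that library. With library totals in place of TMM the median of all genes in this OPC comparison moves by -0.18. In the SST clusters led by Myh4, Cbln4 and Crh, Cacng4 pooled over WT libraries was at 22.1, 32.1 and 12.0 CPM in cortex and 43.0, 63.7 and 25.4 CPM in hippocampus. Whether the region difference of Cacng4 differs between SST cells and OPC was not tested.

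Cacng3 went opposite ways in SST and PVALB cells. In SST cells it was at 117, 83.5 and 85.7 CPM in cortex and 68.7, 52.4 and 47.5 CPM in hippocampus. In PVALB cells it was at 22.7, 27.9 and 14.6 CPM in cortex and 88.7, 69.7 and 36.2 CPM in hippocampus. The regions do not overlap in either class. The differences were -0.82 in SST cells (SE 0.27, adjusted p 0.36) and 1.56 in PVALB cells (SE 0.39, adjusted p 0.339), the latter called with the replicate block (1.49, adjusted p 0.0039) and the former not (-0.82, adjusted p 0.0127). They were -0.79 and 1.43 without hippocampus WT replicate 2. In the SST clusters led by Myh4, Cbln4 and Crh, pooled Cacng3 was at 118, 135 and 63.0 CPM in cortex and 73.4, 73.1 and 39.4 CPM in hippocampus. The part of make-up in the SST differences was not tested.

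Cnih2 in PVALB cells was at 163, 155 and 145 CPM in cortex and at 564, 205 and 345 CPM in hippocampus. In SST cells it was at 422, 266 and 311 CPM and at 640.0, 171 and 439 CPM. The PVALB regions are apart and the SST regions overlap. Hippocampus WT replicate 2 was the lowest hippocampus library in both classes, and the PVALB difference was 1.25 (SE 0.33, adjusted p 0.414) with it and 1.53 without it. The replicate block gave 1.15 (adjusted p 0.0104) in PVALB and 0.12 (adjusted p 0.872) in SST cells.

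**Figure D3:**
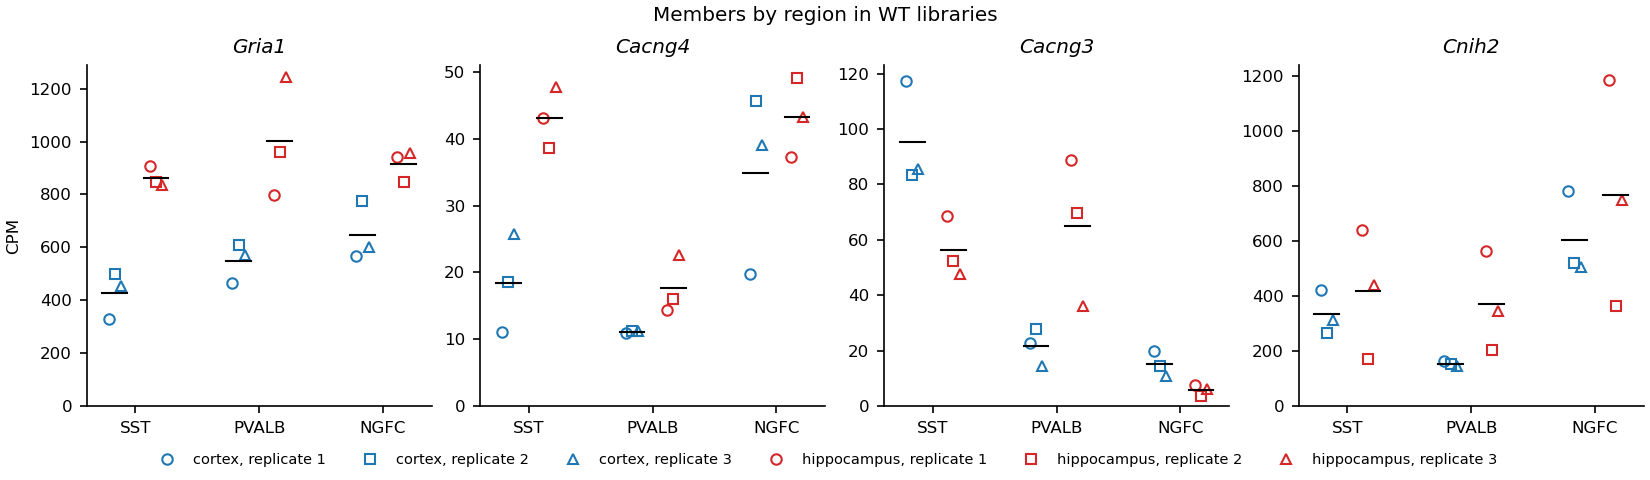
Levels in CPM of Gria1, Cacng4, Cacng3 and Cnih2 in 3 interneuron classes of the WT libraries, cortex in blue and hippocampus in red. Symbols stand for replicates (circle 1, square 2, triangle 3) and black lines for the mean of 3 libraries; Cacng3 is lower in hippocampus in SST cells and higher there in PVALB cells.

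Of the members, 0 of 10 in SST, 0 of 9 in PVALB, 0 of 7 in NGFC and 0 of 5 in OPC cells were called by edgeR, where 0.0504%, 0.0339%, 0% and 0% of all genes were. At an unadjusted p under 0.05 the edgeR counts were 4, 3, 0 and 1, and DESeq2 called 1, 0, 0 and 0. Over all genes these edgeR counts were 875 of 11895, 375 of 8837, 216 of 7844 and 224 of 5011. DESeq2 called 142, 24, 4 and 1 of the same genes. With the replicate block, 336 genes in all and 2 members (Gria1 and Cacng4) were called in SST cells, and 56 genes and 1 member (Cacng3) in PVALB cells, against 6 and 3 genes without it. In NGFC and OPC cells edgeR with the block called 5 and 33 genes and 0 of 8 and 0 of 5 members, with 3 and 1 at an unadjusted p under 0.05 and 0 by DESeq2 without the block. In simulated counts the test without the block recovered 0 of 64 genes given a log2 change of 1 in SST cells and 32 of 63 given a change of 2.

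Whether the region difference itself differs between classes was tested in 1 edgeR fit of the 3 interneuron classes with library as a block, an analysis added after the data were seen. For PVALB relative to SST, 2 of 10 members were called, against 0.867% of all genes. Cacng3 differed by 2.28 (SE 0.26, adjusted p 4.2e-06) and Cnih2 by 0.93 (SE 0.15, adjusted p 0.00036), and DESeq2 called both. For NGFC relative to PVALB, 1 of 10 was called, against 0.289% of all genes: Cnih2 at -0.81 (SE 0.16, adjusted p 0.0075), with Cacng3 at -2.61 (adjusted p 0.0222). That Cnih2 call was lost in 11 of 20 alternatives, among them without cortex WT replicate 1 (-0.66) or 3 (-0.89) and without hippocampus WT replicate 1 (-0.81), 2 (-0.74) or 3 (-0.86). For NGFC relative to SST, edgeR called 0 of 10, against 0.963% of all genes. At an unadjusted p under 0.05 there were 3 members and 1347 of 11423 genes, and DESeq2 called 0 members and 88 genes. Gria1 was among those 3 members, at -0.45 (adjusted p 0.137), and did not pass.

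The make-up of the PVALB class moves with the Cacng3 and Cnih2 results. The cluster led by Kcng4 held 113 of 1302 PVALB cells in WT cortex and 107 of 311 in WT hippocampus, or 27 of 135 without hippocampus WT replicate 2. Its share was 10.7%, 13.2% and 4.73% in cortex replicates 1 to 3 and 30.2%, 45.5% and 13.4% in hippocampus, and hippocampus replicate 3 is close to cortex replicate 2. Cacng3 in that cluster was at 42.5 CPM in cortex and 139.9 CPM in hippocampus, with 95% counting intervals of 29.9 to 58.6 and 109 to 177, and Cnih2 was at 267 and 568 CPM. In the cluster led by Cartpt, Cacng3 was at 17.1 and 25.8 CPM, with intervals of 14.5 to 20.0 and 17.7 to 36.2, and Cnih2 at 139 and 259 CPM. The Cacng3 intervals of the Cartpt cluster overlap. Without hippocampus WT replicate 2 the differences between PVALB and SST in the region effect were 2.13 for Cacng3 and 0.80 for Cnih2, and both were called. With the Cartpt cluster alone as PVALB, the Cacng3 difference was 1.30 (adjusted p 0.0371) and the Cnih2 difference 0.53 (adjusted p 0.0787), and neither was called. The 7 SST markers summed to 869, 1710 and 1578 CPM in PVALB cells of cortex and to 1986, 992 and 5467 CPM in those of hippocampus, led by Sst or Cort and with at most 1 of the 7 at 0, and the part of SST cells or their RNA was not tested.

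The last comparison asks whether loss of Grin1 changes the AMPA receptor genes of the same cells. NMDA and AMPA receptors sit side by side at excitatory synapses, and NMDA receptor activity is known to control how many AMPA receptors a synapse holds. The tests compared 2 null with 3 WT libraries in each region, in 1 edgeR fit per class. For NGFC and OPC only 1 null cortex library held 10 or more cells of the class, and that lone library is assumed to vary like the other groups. Before filtering, 287 of 2898 barcodes of null cortex replicate 2 and 265 of 4436 of null hippocampus replicate 2 had over 30% mitochondrial UMIs. Each other library had at most 4 such barcodes. The part of cell quality in the genotype differences was not tested.

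Grin1 (ENSMUSG00000026959.9, chr2:25291181-25319187) shows the reach of the deletion. In SST cells it was at 156, 272 and 239 CPM in WT cortex and at 37.6 and 24.6 CPM in null cortex, and at 122, 178 and 159 CPM in WT and 21.3 and 21.6 CPM in null hippocampus. The genotypes are far apart. The difference was -2.90 (adjusted p 0.0375) in cortex and -2.82 (adjusted p 0.0467) in hippocampus, past 0.05 and not past 0.01 in edgeR, and DESeq2 gave adjusted p of 3.2e-12 and 1.7e-11. PVALB cells gave -2.54 and -2.87 and NGFC cells -2.11 and -2.49. Leaving out hippocampus WT replicate 2 gave hippocampus values of -2.69 in SST (adjusted p 0.0663), -2.65 in PVALB and -2.57 in NGFC cells. The sources do not say which exons the loxP sites flank, so the null UMIs that remain may come from undeleted parts of the transcript, from undeleted cells or from free RNA.

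Gria1 in SST cells was at 576 and 551 CPM in the null cortex libraries, both above the 3 WT cortex values of 331, 498 and 453 CPM. In hippocampus the null values of 888 and 834 CPM lay in or just under the WT range of 837 to 907 CPM. The log2 difference was 0.39 (SE 0.24) in cortex and 0.02 (SE 0.24) in hippocampus, at adjusted p of 1 and 0.999. The latter was also 0.02 without hippocampus WT replicate 2. The TH cluster, rich in Gria1, held 10 of 107 and 172 of 581 cells of the null cortex SST class and 93 of 592, 96 of 1055 and 183 of 1565 in WT, and with it left out the cortex difference was 0.38 (SE 0.27, adjusted p 1). Within replicate numbers the cortex difference was 0.80 for replicate 1 and 0.15 for replicate 2. In PVALB cells of cortex the null values of 616 and 646 CPM were also above every WT value. In NGFC cells of cortex, null replicate 2 was at 485 CPM, below every WT value and at -0.67 from WT replicate 2.

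Gria2 in SST cells was at 428 and 455 CPM in null and 480.1, 523 and 452 CPM in WT cortex, and at 378 and 436 CPM in null and 558, 559.9 and 438 CPM in WT hippocampus. The hippocampus groups just miss each other and the cortex groups overlap. The differences were -0.16 (SE 0.23) and -0.33 (SE 0.23), with adjusted p of 1 and 0.976, and the latter was -0.26 without hippocampus WT replicate 2. In NGFC cells of hippocampus Gria2 was at 193 and 217 CPM in null and 293, 358 and 252 CPM in WT, a difference of -0.55 (SE 0.31, adjusted p 0.952), or -0.39 without hippocampus WT replicate 2. Against the WT library of the same region and replicate number, Gria2 was lower in null in 11 of 11 pairs of the 3 interneuron classes, by log2 differences of -0.72 to -0.10. The OPC pairs went both ways, at 0.04, 0.23 and -0.30. The 11 pairs come from 4 pairs of libraries, and no other member went 1 way in all 11. Of 4018 genes with at least 10 UMIs in each sum, 2.84% were lower and 3.24% higher in null in all 11, a count added after the data were seen. Without hippocampus WT replicate 2, Gria2 was lower in 8 of 8 pairs, by -0.60 to -0.10, as were 4.39% of 4055 genes. With the replicate number as a block, edgeR gave -0.40 (adjusted p 0.473) in SST and -0.66 (adjusted p 0.34) in NGFC cells of hippocampus.

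Cacng5 in SST cells was the member with the lowest unadjusted p. It was at 23.5 and 10.8 CPM in null and at 4.73, 8.29 and 7.34 CPM in WT cortex, and at 7.65 and 10.6 CPM in null and 4.26, 4.63 and 6.91 CPM in WT hippocampus. Both null values exceed the 3 WT values in each region. The share of all genes whose null and WT libraries lie apart in this way is not given, here or for the other members. The differences were 1.18 (SE 0.42, adjusted p 1) in cortex and 0.82 (SE 0.44, adjusted p 0.976) in hippocampus, or 0.74 without hippocampus WT replicate 2. The counts are small, 20 and 70 UMIs in null cortex against 23, 43 and 98 in WT cortex.

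Gria3 in null SST cells was at -0.02 (SE 0.35) in cortex and -0.16 (SE 0.35) in hippocampus relative to WT. Gria4 was at 0.11 (SE 0.48) and -0.24 (SE 0.48). Cacng2 was at 0.04 (SE 0.32) and -0.01 (SE 0.32), and Cnih2 at 0.23 (SE 0.43) and 0.16 (SE 0.43). None of these was called. The hippocampus values without WT replicate 2 were 0.16 for Gria3, 0.52 for Gria4, -0.11 for Cacng2 and -0.21 for Cnih2, so the signs of Gria3, Gria4 and Cnih2 turn. Against WT SST cells of the same number, cortex replicates 1 and 2 gave 0.74 and -0.62 for Gria3 and 0.79 and -0.28 for Gria4. Cacng2 was at 0.30 and 0.09, and Cnih2 at -0.38 and 0.83. The hippocampus pairs in the same order were -0.25 and -0.32, 0.23 and -0.84, 0.44 and 0.19, and -0.49 and 1.41.

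In PVALB cells of cortex, Cacng4 was at 31.5 and 21.6 CPM in null and 10.9, 11.2 and 11.2 CPM in WT, apart and at 1.13 (SE 0.56, adjusted p 1), while in hippocampus it was at 38.9 and 6.51 CPM in null and 14.3, 16.1 and 22.6 CPM in WT, at -0.18 (SE 0.65), or -0.34 without hippocampus WT replicate 2. The make-up of the class differs by genotype: the cluster led by Crabp1 held 8 of 29 and 58 of 252 null cortex PVALB cells and 10 of 140, 10 of 506 and 18 of 656 in WT. With the Cartpt cluster alone as PVALB, the cortex difference of Cacng4 was -0.22 (SE 0.69, adjusted p 1).

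**Figure D4:**
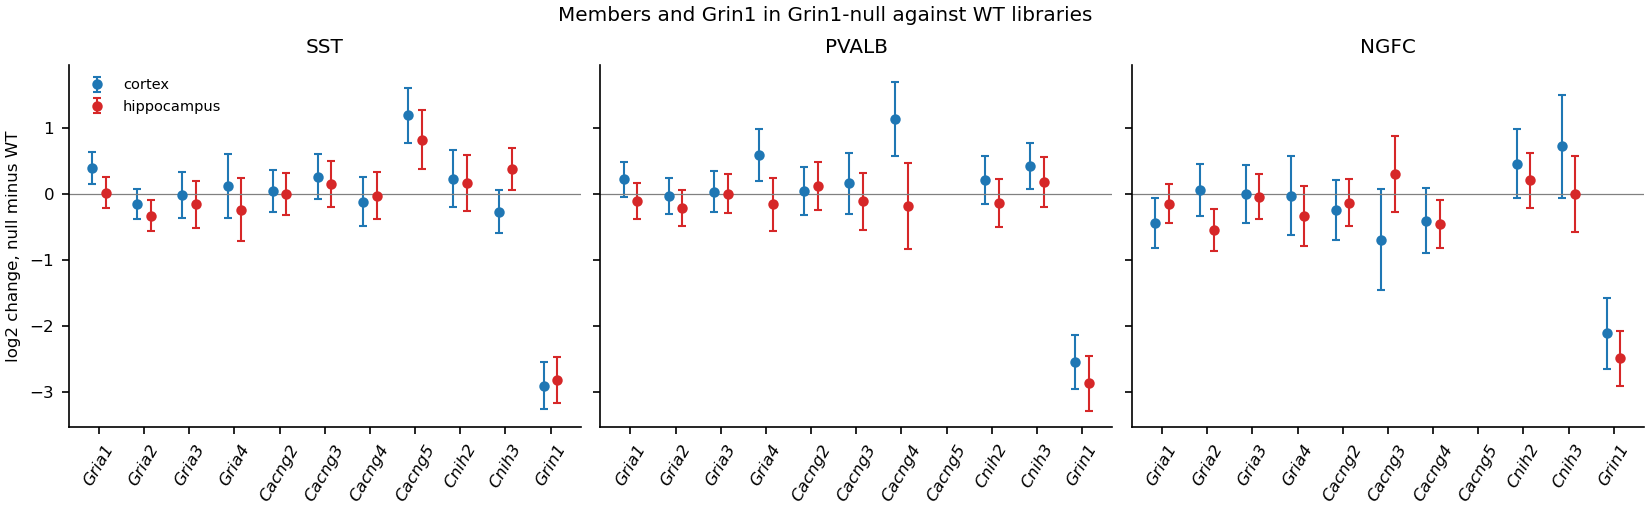
Log2 change of each member and of Grin1, null minus WT, in 3 interneuron classes, with the SE of the edgeR fit as error bars, cortex in blue and hippocampus in red. Genes without a point did not pass the filter on low counts; Grin1 lies between -2.11 and -2.90 in all 6 comparisons, and every member lies between -0.69 and 1.18.

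By edgeR 0 members were called in any genotype comparison: 0 of 10 in SST, 0 of 9 in PVALB, 0 of 9 in NGFC and 0 of 6 in OPC cells, in both regions, where 0% of all genes were called in each of the 8 comparisons. At an unadjusted p under 0.05 the edgeR count was 1 member, Cacng5 in SST cells of cortex, and DESeq2 called 0 members. Over all genes the counts at an unadjusted p under 0.05, in cortex and hippocampus, were 310 and 467 in SST, 370 and 324 in PVALB, 140 and 312 in NGFC, and 151 and 184 in OPC cells. DESeq2 called 2 and 1, 15 and 1, 0 and 1, and 0 and 0. In simulated counts of the same depths and spread, the test in hippocampal SST cells recovered 1 of 62 genes given a log2 change of 1 and 27 of 67 given a change of 2. The difference of the genotype effect between regions was tested in the same fits and edgeR called 0 members, with 0 at an unadjusted p under 0.05 and 0 by DESeq2.

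Other genes follow some members across the classes. Over the 21 means of a class in a region of the WT libraries, on a scale of log2(CPM + 1), the genes most like Gria1 were Pde4a (Pearson r 0.943), Atp2b2 (0.942) and Ccdc136 (0.932). Those most like Gria2 were Csmd1 (0.951), Grid1 (0.918) and Mrpl50 (0.913), and those most like Gria3 were Tln2 (0.957), Tsn (0.896) and Pkia (0.895). For Gria4 they were A330076H08Rik (0.947), Asns (0.947) and C77370 (0.938). The search covered 9984 genes, and the points share their libraries and differ in depth, so these values describe the classes and carry no test.

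These data count RNA and say nothing of receptor protein, editing or splice forms such as flip and flop. Each group has 2 or 3 libraries of pooled animals, and replicate number goes with 10x chemistry. WT hippocampus replicate 2 is shallow, and depth differs between null and WT. Cacng5 in all classes and Cacng3 and Cnih3 outside a few of them rest on small counts. Free RNA and the mixture of clusters within a class enter every sum. The p of tests between classes describe libraries, and the classes themselves were drawn from the same counts.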

How the data were processed

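Single-cell UMI counts were used as deposited. The authors made these counts with Cell Ranger 2.1.1 on mm10 with gene ends lengthened by up to 4 kb (the matrix headers name a later version), and the 4 deposited matrices pool the libraries of 1 region and genotype. Libraries were told apart by barcode suffix and matched to replicates by their cell numbers.

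Barcodes were kept if they showed 200 to 6000 genes and less than 30% of UMIs from mitochondrial genes. Doublets were left in, and removal of the 249 cells that Scrublet marked (rate 0.06) was an alternative. Seurat 5.3.0 in R 4.3.3 integrated the matrices over 25 dimensions and 2000 variable features, with the members and the 32 other complex genes left out of the features, and clustered at resolution 1. Clusters were named from markers, and those with mixed markers or very few UMIs were left unnamed. Counts were summed per library and class (at least 10 cells) and tested with edgeR 4.0.16 (TMM, filterByExpr, quasi-likelihood, Benjamini-Hochberg over all genes tested). DESeq2 1.42.0, other clusterings, filters, scalings and blocks, and each library left out in turn were alternatives. The Chodl cluster counted with SST, the TH cluster left out, the Cartpt cluster alone as PVALB and the test of region differences between classes came after the data had been seen. The code was tested on simulated data. Python 3.11.15 with scipy 1.17.1 and pandas 2.3.3 made levels, shares and intervals, and intervals cover counting error only.

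Named genes are the 10 members, Grin1, up to 4 called genes of the other complex genes per comparison with the largest change, and the 3 genes most like each subunit gene among those reaching 50 CPM. The members and lists were chosen with earlier results of these data known. Adarb1 and Cacng7 fall outside this rule. Gene positions are from GENCODE release M21 on GRCm38. Data of other assays in the study and results for other genes were left out.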

Additional observations from a re-analysis of the deposited data

Results flagged for a closer look

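Gria4 in SST cells of WT hippocampus replicate 2 was at 279.7 CPM, far from the other WT libraries, which lay between 43.2 and 98.7 CPM. The gap is 0.765 of the whole range, above the critical share of Dixon's test for 6 values. It is 1 of 41 groups of WT libraries examined, and chance marks about 1 in 20. That library also had the highest Gria4 in PVALB cells (332 CPM), NGFC cells (179 CPM) and oligodendrocytes (70.8 CPM), and the lowest median UMIs per cell (1479). In OPC it was not the highest, at 112 CPM against 153 CPM in cortex WT replicate 2. The hippocampus minus cortex difference of Gria4 in SST cells was 1.09 with this library and 0.33 without it.

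The region difference of Cacng3 differed between PVALB and SST cells by 2.28 in a test of the difference itself, and that of Cnih2 by 0.93. The region difference of Cnih2 also differed between NGFC and PVALB cells, by -0.81. The test was added after the data were seen. Over its 20 alternatives the first ran from 1.30 to 2.60 with a highest adjusted p of 0.0371, the second from 0.53 to 1.07 with a highest adjusted p of 0.0787, and the third from -0.92 to -0.37 with a highest adjusted p of 0.383. The first 2 lost their call only with the Cartpt cluster alone as PVALB, and the third lost it in 11 of 20. The cluster led by Kcng4 held 4.73% to 13.2% of PVALB cells in the WT cortex libraries and 13.4%, 45.5% and 30.2% in hippocampus replicates 3, 2 and 1. Replicate 2 gave 80 of its 107 hippocampal cells, and the part of this share was not tested beyond that alternative.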

How the results depend on the processing

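No called difference of a member changed sign under any alternative. Of the members called between classes, 0 of 7 in edgeR and DESeq2 were tested and called under every alternative between PVALB and SST, 3 of 6 between NGFC and SST, 3 of 8 between NGFC and PVALB, 3 of 5 between glutamatergic and SST cells and 4 of 5 between OPC and oligodendrocytes. Cacng5 stayed called in the 17 alternatives that tested it in PVALB cells and fell under the filter on low counts in the others.

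The library block moved the member counts between classes, and the shares of all genes called without it are not given. Without it 0 members in place of 7 were called between PVALB and SST, 3 in place of 6 between NGFC and SST, 4 in place of 8 between NGFC and PVALB, and 3 in place of 5 between glutamatergic and SST cells. For the last, an adjusted p under 0.05 gave 8, as did no filter on low counts. Leaving out each library gave 3 to 8, 4 to 6, 7 to 9 and 4 to 7 in these comparisons and 4 to 5 for OPC. The lowest PVALB count, 3, came without cortex WT replicate 2 or 3. Shares of all genes called with a library left out, or under the other settings named here, are also not given.

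Between regions, DESeq2 called 1 member in SST cells and the replicate block 2, and in PVALB cells the replicate block and the absence of a filter called 1 each, where the count was 0. For the difference between PVALB and SST in the region effect, the Cartpt cluster alone gave 0 in place of 2. For that between NGFC and PVALB, where the count was 1, an adjusted p under 0.05 and DESeq2 gave 2. Resolutions 0.6 and 1.4, the Chodl cluster counted with SST, the TH cluster left out and the Cartpt cluster alone each gave 0, and leaving out each library gave 0 to 1. Genotype counts were 0 under each alternative. The numbers of all genes called between regions by DESeq2 and with the replicate block are given above, and those under most other alternatives are not. The cause of these changes was not tested.

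Depth limits Cacng5, Cnih3 and Cacng3 outside SST cells, where a class sum can hold under 10 UMIs, and the null replicate 1 libraries, which hold 177 and 401 cells. With 2 null libraries per region, SEs of the subunit genes in SST cells were 0.23 to 0.48.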
